A study of Mus musculus with 16 samples.

Results

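The BCL2 family is the set of proteins that decides whether the outer mitochondrial membrane is opened during programmed cell death. Its transcripts were followed in epithelial cells isolated from the caecum, the bacteria-filled pouch where small and large intestine meet, of C57BL/6 mice. The members were chosen by name: 10 gene symbols out of the 24091 genes of the expression table, namely the pro-survival Bcl2l1 and Mcl1, the pore-forming effectors Bak1 and Bax, and the BH3-only genes Bid, Bik, Bmf, Bcl2l11, Bbc3 and Pmaip1. All 10 were present, and all 10 passed the filter on low values, which required a mean of at least 1 TPM over 9 libraries and was passed by 12155 genes in all. The clearest change was in Pmaip1, which was 2.01-fold higher with ampicillin and 2.64-fold higher with ampicillin and tributyrin than in vehicle. The 2 pro-survival members, Mcl1 and Bcl2l1, were not called in any comparison. Of their pro-survival relatives outside the 10, Bcl2l2 was called lower with tributyrin against mock gavage and Bcl2 higher with ampicillin. TPM is a relative transcript level, scaled by transcript length and by the total of the library.

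The study asked how antibiotic treatment and a butyrate source change chromatin marks and RNA in these cells. Every group received Splenda, a sweetener, at 10 g/L as the vehicle for 7 days. Vehicle_Mock libraries (n = 3) came from mice on vehicle alone that were given a mock gavage of 25% glycerol on day 7. Amp_Mock libraries (n = 3) came from mice that also received the antibiotic ampicillin at 1 g/L, with the same mock gavage. Amp_Tributyrin libraries (n = 3) came from mice on ampicillin that were gavaged with tributyrin, a triglyceride of butyrate, and tissue was taken 6 h after gavage in all groups. Tributyrin was given only on top of ampicillin. The labels give no ages and do not say whether replicate libraries of a group were made from different animals. The p-values therefore rest on the spread of these libraries alone, which may be technical. The series has 16 samples, of which the other 7, from chromatin, are not analysed here.

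In healthy cells the pro-survival proteins hold the effectors BAK and BAX in check. BH3-only proteins, made or activated on stress, occupy the pro-survival proteins or act on the effectors directly, and freed effectors assemble into pores that release cytochrome c and start the caspase cascade. Gut epithelium turns over rapidly, and its pro-survival proteins set how many cells die in the crypt and along the surface. Butyrate, which gut bacteria make from fibre, is a fuel of the large intestinal epithelium and an inhibitor of histone deacetylases.

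The libraries carried an epithelial signature. The summed level of 11 epithelial markers was 41690 to 47900 TPM, and that of 9 fibroblast and smooth muscle markers was at most 0.523 TPM. Most of the epithelial sum was the single gene Car1, at 26030 to 29720 TPM. The 8 myeloid markers summed to 3.409 to 6.235 TPM. Of these, the neutrophil marker S100a8 was at 0 in every library and S100a9 was at most 0.136 TPM. With ampicillin 6 of the 11 epithelial markers were called lower and none higher, beside 10.2% and 11% of all genes tested. With tributyrin against mock gavage 2 were called higher and none lower, beside 15.6% and 7.54%. The 4 endothelial markers summed to 3.81 to 4.37 TPM in vehicle, 0.851 to 0.927 in ampicillin and 1.68 to 2.13 TPM in tributyrin libraries. Most of each sum was the single gene Pecam1, which averaged 3.79, 0.586 and 1.38 TPM in the same order. Vwf ran a different course at 0.320, 0.292 and 0.482 TPM, and Cdh5 and Kdr were at most 0.00973 and 0.0376 TPM. The library Vehicle_Mock replicate 2 stood apart, with 568.5 TPM over 11 Paneth cell and small intestinal markers against 73.8 to 175.2 TPM in the other 8. With that library included in the fit, 4 of the 6 tested markers of this list were called lower with ampicillin and 1 higher. The shares of all genes tested were 10.2% lower and 11% higher. These markers were not fitted without that library. Fabp6 was 12.3, 344.7 and 53.4 TPM in vehicle libraries and at most 4.46 TPM in tributyrin and 3.63 TPM in ampicillin libraries. Alpi was 28.1 to 35.4 TPM in vehicle and at most 13.9 TPM in the rest. T and intraepithelial lymphocyte markers (8 genes) summed to 19.8 to 23.3 TPM in vehicle, 15.7 to 24.2 in ampicillin and 27.8 to 50.3 in tributyrin libraries. The 3 haemoglobin and erythroid markers in the table summed to 8.31 to 25.3, 13.4 to 36.6 and 94.3 to 133.8 TPM in the same order. The share of all TPM taken by the single short RNA entry Mir6236 was 2.14% to 4.48% in vehicle, 1.24% to 4.04% in ampicillin and 0.705% to 0.863% in tributyrin libraries. In bulk tissue, fewer cells of a type and less RNA per cell cannot be told apart.

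Levels of the 10 members spanned a wide range, and the effectors and Mcl1 stood at the top. Bax had the highest mean over the 9 libraries at 146.2 TPM, followed by Mcl1 at 114.8 and Bak1 at 107.2 TPM. The ranges of Mcl1 (98.7 to 126.1 TPM) and Bak1 (91.3 to 122.2 TPM) overlapped over most of their length, and that of Bax (121.7 to 179.6 TPM) overlapped that of Mcl1 only at its lower end. Bcl2l1 followed at 34.1 TPM and did not overlap its neighbours in either direction. Bad, a BH3-only gene that is not among the members, averaged 71.4 TPM. The 6 BH3-only members were all lower than Bcl2l1: Pmaip1 averaged 18.2 TPM, Bid 13.8, Bbc3 6.80, Bik 4.56, Bcl2l11 2.76 and Bmf 1.59 TPM. Among these, Pmaip1 (8.0 to 27.7 TPM) and Bid (11.5 to 16.4 TPM) overlapped, Bid stayed above Bbc3 (5.05 to 8.79 TPM) in every library, and from Bbc3 downward each gene overlapped the next.

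**Figure D1:**
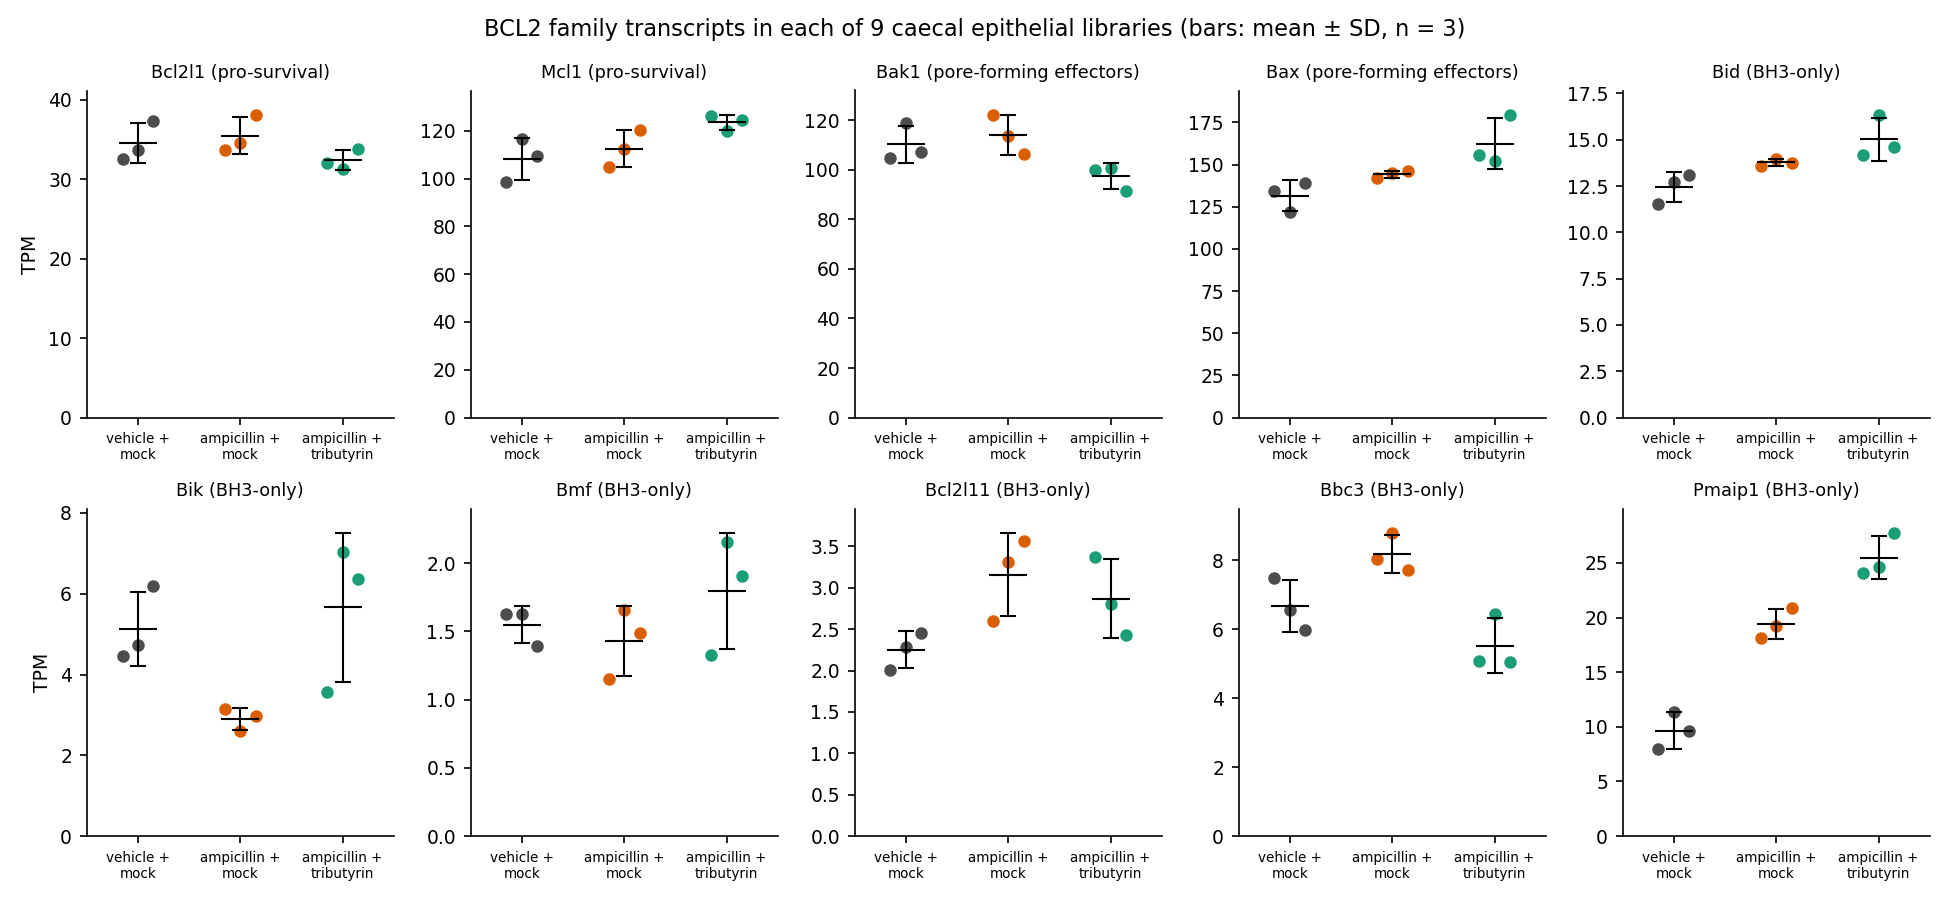
TPM of each of the 10 members (vertical axis, from 0) in the 3 libraries of each group (dots), with the mean and SD as bars. Pmaip1 climbed from 8.0 to 11.4 TPM in vehicle libraries to 24.1 to 27.7 TPM in tributyrin libraries, whereas Bcl2l1 stayed between 31.3 and 38.1 TPM throughout.

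Group differences were tested with limma on log2(TPM + 1) over all 12155 genes, and "called" means a two-sided p below 0.05 after Benjamini-Hochberg adjustment over all of them. Fold changes on that scale understate the change of the lowest members. The same ampicillin libraries serve as one side of both the ampicillin and the tributyrin comparison, and the same vehicle libraries serve 2 comparisons, so the 3 sets of values are not independent of each other. With ampicillin, 1 of 10 members was called (10.0%), against 21.3% of all genes tested (11% higher, 10.2% lower), and that member was higher. In that comparison 6 of 10 had libraries that did not overlap between the groups (5 higher, 1 lower), against 40.8% of all genes (22.6% higher, 18.2% lower). With tributyrin against mock gavage, 3 of 10 members were called (30.0%; 2 higher, 1 lower), against 23.2% of all genes (15.6% higher, 7.54% lower), and 6 of 10 did not overlap (4 higher, 2 lower), against 42.6% (27.3% higher, 15.3% lower). With ampicillin and tributyrin together against vehicle, 3 of 10 were called (30.0%; all 3 higher), against 28.3% of all genes (19.1% higher, 9.21% lower), and 5 of 10 did not overlap (4 higher, 1 lower), against 41.7% (28.5% higher, 13.2% lower). With 10 members, 1 gene is 10.0% of the list, so the shares called lie within about 1 gene of the background in each comparison. The median log2 fold change of the members was 0.10, 0.13 and 0.16 in the 3 comparisons, beside 0.02, 0.05 and 0.08 over all genes tested.

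Among the pro-survival genes, neither Mcl1 nor Bcl2l1 was called in any of the 3 comparisons. Mcl1 (chr3:95656944-95663179, build GRCm38.p6) encodes a short-lived guard that holds BAK, and mice that lose it in the intestinal epithelium show increased epithelial cell death. Its level was 98.7, 116.4 and 109.4 TPM in vehicle libraries, 104.8, 112.6 and 120.2 TPM in ampicillin libraries, and 126.1, 120.0 and 124.6 TPM in tributyrin libraries. The tributyrin libraries lay above all vehicle libraries, but the lowest of them was level with the highest ampicillin library. The log2 fold change was 0.06 ± 0.07 (SE) for ampicillin against vehicle (limma adjusted p = 0.620), 0.14 ± 0.07 for tributyrin against mock gavage (adjusted p = 0.200) and 0.19 ± 0.07 for both agents against vehicle (adjusted p = 0.0740). Without Vehicle_Mock replicate 2, the last of these passed the threshold (adjusted p = 0.0418). Bcl2l1 (chr2:152758732-152833803) encodes BCL-XL, which restrains both effectors. It ranged from 32.6 to 37.3 TPM in vehicle, 33.7 to 38.1 TPM in ampicillin and 31.3 to 33.8 TPM in tributyrin libraries, overlapping in each comparison. Its log2 fold changes were 0.04, -0.13 and -0.09 in the same 3 comparisons, each ± 0.07 (limma adjusted p of 0.758, 0.215 and 0.359).

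Of the effectors, Bax was called in 1 comparison and Bak1 in none. Bax (chr7:45461695-45466903) encodes a largely cytosolic protein that moves to mitochondria on activation. Its level was 134.3, 121.7 and 139.0 TPM in vehicle libraries, 142.1, 144.8 and 146.1 TPM in ampicillin libraries, and 155.8, 152.1 and 179.6 TPM in tributyrin libraries. Every library of one group lay above every library of the group before it. Bax rose 1.23-fold with both agents against vehicle (log2 fold change 0.30 ± 0.07 SE, limma adjusted p = 0.0179), while the step with ampicillin (0.13 ± 0.07, adjusted p = 0.240) and the step with tributyrin (0.17 ± 0.07, adjusted p = 0.135) each missed the threshold. The Bax call was kept with each single library left out and was lost when each library was centred on its median log2 ratio (0.23, adjusted p = 0.0945) or when only the 6 libraries compared were fitted (adjusted p = 0.0522).

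Bak1 (chr17:27019812-27028627) encodes an effector that resides in the outer mitochondrial membrane. Its level was 104.7, 118.7 and 107.2 TPM in vehicle libraries, 122.2, 113.7 and 106.2 TPM in ampicillin libraries, and 99.8, 100.8 and 91.3 TPM in tributyrin libraries. All 3 tributyrin libraries lay below all 6 others. The log2 fold change with tributyrin against mock gavage was -0.23 ± 0.07 (limma adjusted p = 0.0520), against vehicle -0.18 ± 0.07 (adjusted p = 0.0977), and with ampicillin 0.05 ± 0.07 (adjusted p = 0.688). The tributyrin difference was just outside the threshold, and it was inside it without Vehicle_Mock replicate 2 (adjusted p = 0.0410), without Amp_Mock replicate 3 (adjusted p = 0.0452), with the replicate number as a block (adjusted p = 0.0352), and with median centring, array weights or TPM rescaled without short RNA (adjusted p of 0.0224, 0.0295 and 0.0403). With median centring the difference from vehicle passed as well (adjusted p = 0.0296). Bak1 overlaps Ggnbp1, which was at 5.82 to 8.26 TPM, and since the strand setting of the counting is not given in the sources used here, their reads may not be fully separable.

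Ratios between members within a library do not depend on how libraries were scaled to each other. Bax to Bak1 was 1.28, 1.02 and 1.30 in vehicle libraries, 1.16, 1.27 and 1.38 in ampicillin libraries, and 1.56, 1.51 and 1.97 in tributyrin libraries. Mcl1 to Bak1, the guard to its client, was 0.943, 0.980 and 1.02, then 0.858, 0.990 and 1.13, then 1.26, 1.19 and 1.36. In both ratios the tributyrin libraries lay above all 6 others, while vehicle and ampicillin libraries overlapped. Other ratios were taken as well. Pmaip1 to Mcl1 averaged 0.0888 in vehicle, 0.1725 in ampicillin and 0.2063 in tributyrin libraries, with no overlap between the groups. Mcl1 to Bcl2l1 and Bax to Bcl2l1 were higher in the tributyrin libraries than in all others. All these ratios, and that of Pmaip1 to Bbc3, were chosen after the values had been seen and are given as a description with no test.

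**Figure D2:**
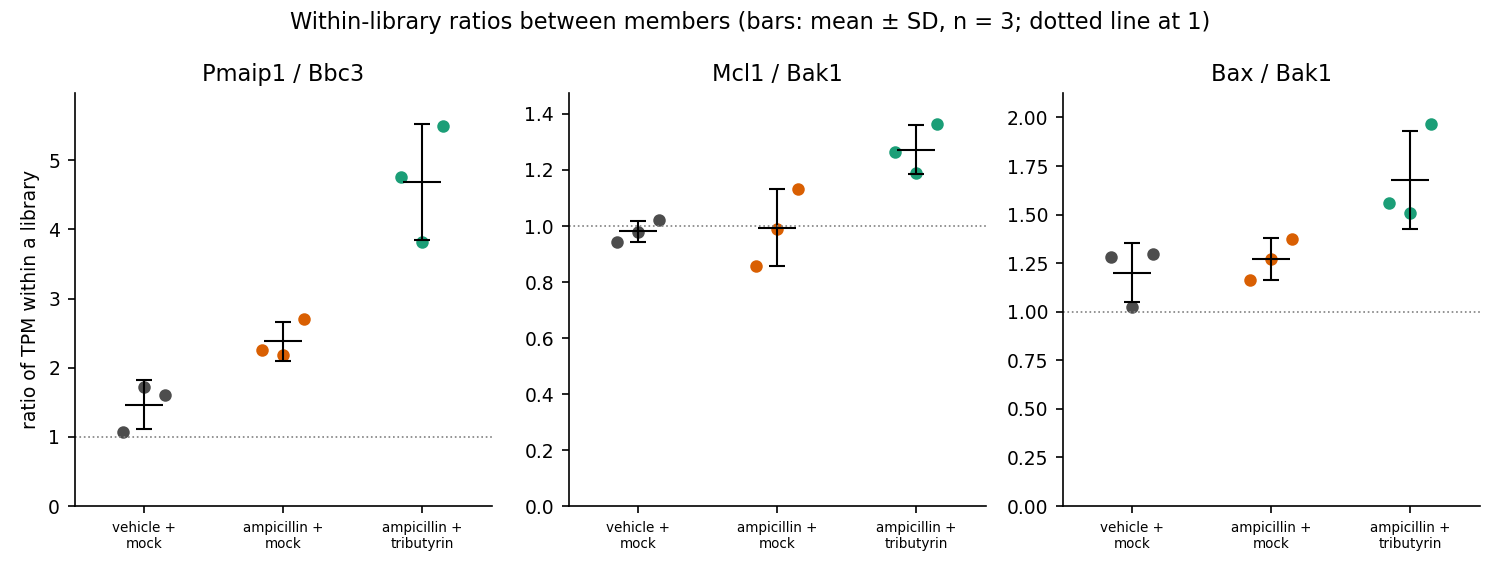
Ratio of TPM values between pairs of members within each library (vertical axes, from 0; dots are the 3 libraries of each group, bars the mean and SD). Pmaip1 to Bbc3 averaged 1.47 in vehicle, 2.38 in ampicillin and 4.69 in tributyrin libraries, and Mcl1 to Bak1 and Bax to Bak1 separated only the tributyrin libraries from the rest.

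Promoter windows are shown for members called in different directions: Bax and Bid, both higher with ampicillin and tributyrin than in vehicle, and Bbc3, which fell with tributyrin against mock gavage. Each line is the 160 bases before a RefSeq transcript start (build GRCm38.p6), read 5′ to 3′ on the gene's strand, with GC boxes (GGGCGG on either strand, the core bound by SP family factors) and E-boxes (CACGTG, which reads the same on both strands) in capitals. The windows are chr7:45466899-45467058 (minus strand) for Bax, chr6:120916825-120916984 (minus strand) for Bid and chr7:16309423-16309582 (plus strand) for the most upstream of 3 Bbc3 starts in the promoter table. The Bid and Bbc3 windows lie inside the span the gene table gives for the whole gene.
Bax: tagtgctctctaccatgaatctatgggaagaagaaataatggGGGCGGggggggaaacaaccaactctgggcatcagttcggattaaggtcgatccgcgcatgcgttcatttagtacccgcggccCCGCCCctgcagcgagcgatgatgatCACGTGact
Bid: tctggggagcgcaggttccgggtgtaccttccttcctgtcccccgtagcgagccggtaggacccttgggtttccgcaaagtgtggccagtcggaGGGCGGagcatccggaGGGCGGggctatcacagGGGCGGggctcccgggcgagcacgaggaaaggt
Bbc3: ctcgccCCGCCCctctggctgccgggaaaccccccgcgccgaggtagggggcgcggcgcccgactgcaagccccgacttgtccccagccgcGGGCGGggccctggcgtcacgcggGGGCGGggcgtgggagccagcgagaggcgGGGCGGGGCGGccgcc
The Bax window held 2 GC boxes and 1 E-box that starts 9 bases before the transcript start, the Bid window held 3 GC boxes, and the Bbc3 window held 5, of which the last 2 overlap. The GC content was 55.0%, 68.1% and 83.1%. Over all 32851 windows of this length in the table, 29.3% held a GC box and 4.50% an E-box, and among 15 windows of the 8 members listed there, 7 held a GC box and 2 an E-box, 1 each of Bax and Bbc3. The table did not match Bik or Pmaip1.

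The largest change among the members was in Pmaip1, a BH3-only gene whose product, NOXA, binds MCL1 and speeds its degradation. Its level was 8.0, 11.4 and 9.59 TPM in vehicle libraries, 18.1, 19.2 and 20.9 TPM in ampicillin libraries, and 24.1, 24.6 and 27.7 TPM in tributyrin libraries. The 3 groups did not overlap, and the lowest ampicillin library was above the highest vehicle library by more than the whole range of either group. Pmaip1 was 2.01-fold higher with ampicillin than with vehicle (log2 fold change 0.95 ± 0.11 SE, limma adjusted p = 0.000728) and 2.64-fold higher with both agents (1.32 ± 0.11, adjusted p = 0.000214). The further step with tributyrin was 1.31-fold (0.38 ± 0.11, adjusted p = 0.0451). The first pair of calls was kept in every alternative and with every single library left out. The tributyrin step had the same direction in all of them, but its adjusted p passed 0.05 without Vehicle_Mock replicate 3 (0.0652), without Amp_Mock replicates 1, 2 or 3 (0.133, 0.115 and 0.0613), without Amp_Tributyrin replicates 1, 2 or 3 (0.0709, 0.0951 and 0.108) and under 4 other settings (at most 0.0728).

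Bbc3 (chr7:16308398-16318334) encodes PUMA, a classical p53 target that binds all pro-survival members, and it went the other way with tributyrin. Its level was 7.48, 6.57 and 5.97 TPM in vehicle libraries, 8.04, 8.79 and 7.73 TPM in ampicillin libraries, and 5.08, 6.44 and 5.05 TPM in tributyrin libraries. The ampicillin libraries were above all others, and the vehicle and tributyrin libraries overlapped. With tributyrin against mock gavage Bbc3 fell to 0.675 of its level (log2 fold change -0.50 ± 0.10 SE, limma adjusted p = 0.0115), and this call was kept in every alternative and with every library left out. The rise with ampicillin (0.26 ± 0.10, adjusted p = 0.116) and the difference from vehicle with both agents (-0.24 ± 0.10, adjusted p = 0.126) did not pass, although the first did with array weights (adjusted p = 0.0382) and the second with quantile normalization (adjusted p = 0.0354). Pmaip1 and Bbc3 are both textbook targets of p53. Within a library the ratio of Pmaip1 to Bbc3 was 1.07, 1.73 and 1.61 in vehicle, 2.25, 2.19 and 2.70 in ampicillin, and 4.75, 3.82 and 5.49 in tributyrin libraries, with no overlap between the groups.

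Bik (chr15:83526790-83544635) encodes a BH3-only protein of the endoplasmic reticulum that opposes BCL2 and BCL-XL. Its level was 4.46, 4.74 and 6.19 TPM in vehicle libraries, 3.14, 2.59 and 2.97 TPM in ampicillin libraries, and 3.57, 7.04 and 6.37 TPM in tributyrin libraries. The ampicillin libraries were below all others, and Amp_Tributyrin replicate 1 lay nearer to them than to the other libraries of its own group. Bik was 1.95-fold higher with tributyrin than with mock gavage (log2 fold change 0.73 ± 0.20 SE, limma adjusted p = 0.0337), and its lower level with ampicillin, 0.566 of vehicle, just missed the threshold (-0.64 ± 0.20, adjusted p = 0.0563). With both agents it did not differ detectably from vehicle (0.09 ± 0.20, adjusted p = 0.773). The tributyrin call was lost without Amp_Mock replicates 1, 2 or 3 (adjusted p of 0.0709, 0.104 and 0.0758) and without Amp_Tributyrin replicates 2 or 3 (0.112 and 0.0845), and under 3 other settings (at most 0.0842). The ampicillin difference passed without Amp_Tributyrin replicates 1 or 2 (adjusted p of 0.00831 and 0.0482) and under 4 other settings (0.0164 to 0.0460).

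Bid (chr6:120893119-120917062) is cut by caspase-8 and so carries the signal of death receptors to mitochondria. Its level was 11.5, 12.7 and 13.1 TPM in vehicle libraries, 13.6, 14.0 and 13.8 TPM in ampicillin libraries, and 14.2, 16.4 and 14.6 TPM in tributyrin libraries. As with Bax, each group lay above the one before it. Bid rose 1.21-fold with both agents against vehicle (log2 fold change 0.25 ± 0.07 SE, limma adjusted p = 0.0236), and neither step alone passed (0.14 and 0.12, each ± 0.07, adjusted p of 0.184 and 0.245). The call was lost without Vehicle_Mock replicate 1 (adjusted p = 0.0729) and without Amp_Tributyrin replicate 2 (adjusted p = 0.0759), and under 3 other settings (at most 0.0677).

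The remaining BH3-only members, Bcl2l11 (chr2:128126038-128162547) and Bmf (chr2:118528757-118549686), were the lowest members, and neither was called in any comparison. Bcl2l11 encodes BIM, which binds every pro-survival member and is held on the dynein motor. It was at 2.01, 2.29 and 2.46 TPM in vehicle libraries and 2.60, 3.31 and 3.57 TPM in ampicillin libraries, with no overlap (log2 fold change 0.35 ± 0.12 SE, limma adjusted p = 0.0813), and at 2.43 to 3.38 TPM with tributyrin. The ampicillin difference passed without Amp_Mock replicate 1 (adjusted p = 0.0475) and with quantile normalization (adjusted p = 0.0291). Bmf, whose product is tied to the myosin motor until the cell loses its attachment, ranged from 1.15 to 2.15 TPM, and its groups overlapped in all 3 comparisons (adjusted p of at least 0.334).

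**Figure D3:**
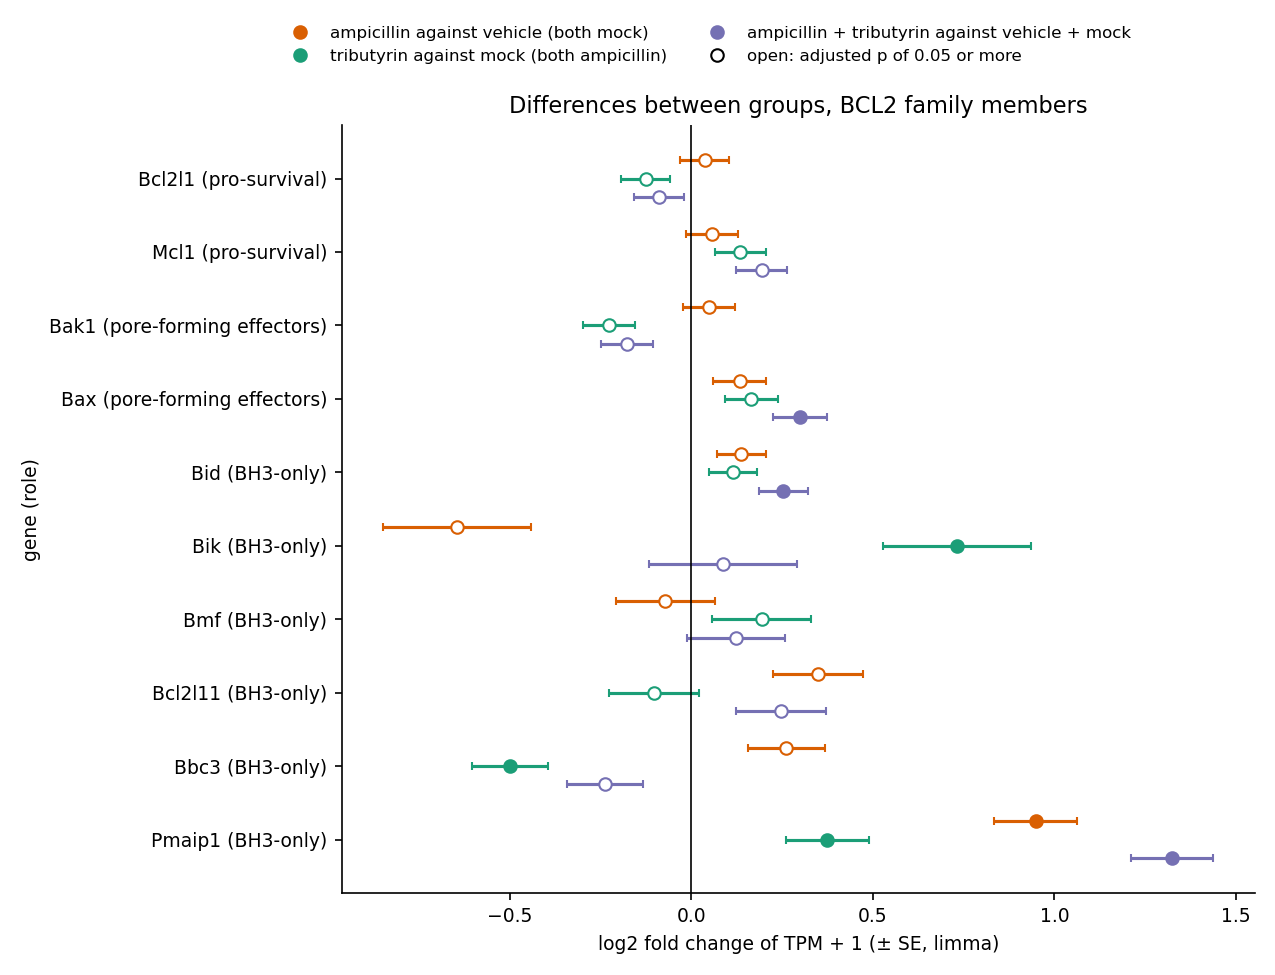
Log2 fold change of TPM + 1 (horizontal axis) with its limma SE for each member and each of the 3 comparisons. Filled points passed the adjusted p of 0.05: Pmaip1 in all 3 comparisons, Bik and Bbc3 with tributyrin against mock gavage, and Bax and Bid with both agents against vehicle.

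Summed by role, the groups did not overlap in the transcripts of the 6 BH3-only members. Their sum was 35.1, 39.3 and 38.7 TPM in vehicle libraries, 46.6, 49.5 and 50.4 TPM in ampicillin libraries, and 51.6, 59.4 and 58.1 TPM in tributyrin libraries. Bad, a BH3-only gene outside the members, averaged 62.7, 74.3 and 77.1 TPM in the same order and is not in this sum. Pmaip1 made up 25.5% ± 3.1 (SD, n = 3) of that sum in vehicle, 39.7% ± 1.5 in ampicillin and 45.3% ± 3.4 in tributyrin libraries, so most of the difference in the sum was this gene. The effectors summed to 241.9 ± 3.8, 258.4 ± 6.0 and 259.8 ± 9.7 TPM, and the pro-survival pair to 142.7 ± 10.0, 148.0 ± 9.9 and 156.0 ± 4.1 TPM (SD, n = 3 each). As a share of all 10 members, the BH3-only members took 8.92% ± 0.24 in vehicle, 10.7% ± 0.3 in ampicillin and 11.9% ± 0.9 in tributyrin libraries. The share of the pro-survival pair was 33.8%, 32.5% and 33.0%, and its groups overlapped. No test was made of these sums, because the members were chosen with earlier results known.

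**Figure D4:**
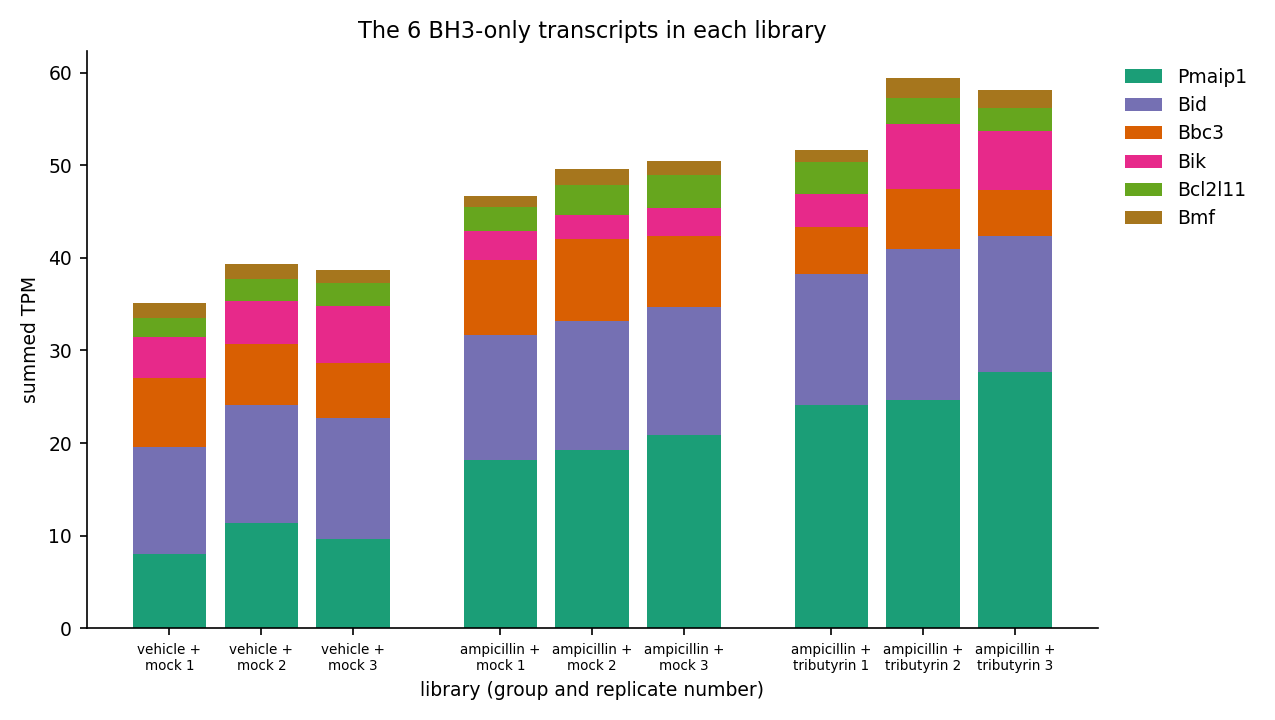
TPM of the 6 BH3-only members stacked for each of the 9 libraries (vertical axis, summed TPM from 0). The stack grew from 35.1 to 39.3 TPM in vehicle to 51.6 to 59.4 TPM in tributyrin libraries, chiefly through its Pmaip1 segment at the base.

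The genes whose levels most resembled those of the most abundant member of each role were taken by Pearson correlation of log2(TPM + 1) over the 9 libraries, which share group, scaling and library composition, so the values are descriptions. For Pmaip1 these were Zfand5 (r = 0.990), Klf6 (0.989) and Dstn (0.989). Klf6, an inducible transcription factor, was at 109.0 ± 4.6, 141.5 ± 6.7 and 159.2 ± 1.1 TPM (SD, n = 3) in vehicle, ampicillin and tributyrin libraries. For Bax they were Polr1d (0.966), Pttg1 (0.965) and Tmem237 (0.963), and for Mcl1 Zfp597 (0.986), Otud4 (0.977) and Pja2 (0.967).

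The counts called in this and the following lists stand beside the shares of all tested genes. These were 21.3% with ampicillin (11% higher, 10.2% lower) and 23.2% with tributyrin against mock gavage (15.6% higher, 7.54% lower). With both agents against vehicle the share was 28.3% (19.1% higher, 9.21% lower). The other BCL2 family genes and relatives formed a list of 15, of which 9 passed the filter. With ampicillin 4 of the 9 rose and none fell. Bnip3, a mitophagy receptor of the family, went from 11.2 ± 2.7 to 24.6 ± 6.0 TPM (SD, n = 3; log2 fold change 1.07 ± 0.20 SE, limma adjusted p = 0.00626). Its relative Bnip3l rose from 32.7 ± 2.2 to 41.6 ± 2.5 TPM (0.34 ± 0.06, adjusted p = 0.00566). Bad, a BH3-only gene whose product is kept inactive by phosphorylation, rose from 62.7 ± 3.1 to 74.3 ± 1.6 TPM (0.24 ± 0.05, adjusted p = 0.00788). The fourth, Bcl2, was low at 2.73 ± 0.24 and 3.90 ± 0.08 TPM (0.39 ± 0.11, adjusted p = 0.0315), and its adjusted p ran from 0.00557 to 0.0911 with single libraries left out. With tributyrin against mock gavage 1 of the 9 rose and 2 fell. The fall of Bcl2l2, which encodes the pro-survival BCL-W, was from 25.4 ± 0.6 to 19.3 ± 0.6 TPM (-0.38 ± 0.05, adjusted p = 0.00184), and Bnip3l fell to 33.7 ± 0.6 TPM (-0.30 ± 0.06, adjusted p = 0.0113). Bok, a further effector-like member, rose from 11.7 ± 0.7 to 15.2 ± 2.0 TPM (0.35 ± 0.10, adjusted p = 0.0316), with an adjusted p of 0.0168 to 0.102 when single libraries were left out. Against vehicle, both agents together gave 5 genes higher and 1 lower.

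Downstream of mitochondria, 18 listed genes were tested, and 4 of them were called in each comparison, beside 21.3%, 23.2% and 28.3% of all genes. With ampicillin 2 rose and 2 fell, with tributyrin 3 rose and 1 fell, and with both agents against vehicle 2 rose and 2 fell. Apaf1, the scaffold on which caspase-9 is activated, rose with tributyrin from 2.46 ± 0.27 to 3.64 ± 0.30 TPM (SD, n = 3; log2 fold change 0.43 ± 0.09 SE, limma adjusted p = 0.0111). The caspase inhibitor Birc5, a gene of dividing cells, also rose with tributyrin (62.9 ± 7.7 to 86.7 ± 5.2 TPM, adjusted p = 0.00885), and Xiap, another caspase inhibitor, was higher with both agents than in vehicle (17.7 ± 2.4 to 25.4 ± 1.4 TPM, adjusted p = 0.00774).

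The death receptor pathway, which meets the BCL2 family at Bid, had 12 tested genes, of which 3 rose and 2 fell with ampicillin, and 3 rose and 3 fell with tributyrin. The receptor gene Fas was 6.05 ± 0.60 TPM in vehicle, 7.86 ± 0.37 in ampicillin and 4.78 ± 0.30 TPM in tributyrin libraries. Its fall with tributyrin was -0.62 ± 0.08 on the log2 scale (limma adjusted p = 0.00150). Tnfsf10, the ligand TRAIL, ran the opposite course at 5.65 ± 0.66, 3.24 ± 0.23 and 4.74 ± 0.42 TPM, falling with ampicillin (-0.65 ± 0.09, adjusted p = 0.00180) and rising with tributyrin (0.44 ± 0.09, adjusted p = 0.0126). Ripk3, the kinase of necroptosis, rose with tributyrin from 15.6 ± 1.6 to 25.1 ± 3.0 TPM (0.65 ± 0.13, adjusted p = 0.0103). Lymphocytes also express several of these genes, and beside the tributyrin values stand the lymphocyte marker sums, 15.7 to 24.2 TPM in ampicillin and 27.8 to 50.3 TPM in tributyrin libraries; their part in the result was not tested.

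Of 10 tested genes of p53 and its targets, 1 rose and 4 fell with ampicillin. The count leaves out p53 targets placed in other lists, such as Pmaip1, called higher with ampicillin, and Bbc3, not called there. Trp53 itself was 68.7 ± 1.4, 70.2 ± 2.8 and 64.7 ± 10.0 TPM and was not called (limma adjusted p of at least 0.399). Cdkn1a, the p21 cell cycle inhibitor, fell from 294.5 ± 13.3 TPM in vehicle to 219.1 ± 7.3 in ampicillin libraries (log2 fold change -0.42 ± 0.05 SE, adjusted p = 0.000822). Sesn2, a stress-induced regulator of growth signalling, fell with ampicillin from 13.3 ± 1.7 to 9.37 ± 0.46 TPM (-0.46 ± 0.09, adjusted p = 0.00783). With tributyrin against mock gavage 2 of the 10 rose and none fell, and with both agents against vehicle 1 rose and 1 fell. The gene that rose was Ccng1, from 34.4 ± 3.4 to 44.2 ± 1.5 TPM (0.35 ± 0.08, adjusted p = 0.0148). Cdkn1a was the gene that fell, to 201.0 ± 8.2 TPM (-0.55 ± 0.05, adjusted p = 0.000325).

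Of 12 transcription factors known to act on BCL2 family genes, 4 rose and 1 fell with ampicillin, 2 rose and 1 fell with tributyrin, and 5 rose with both agents. Atf3, a stress-induced factor, was 102.9 ± 26.6 TPM in vehicle, 215.4 ± 18.1 in ampicillin and 260.4 ± 10.9 TPM in tributyrin libraries. It rose with ampicillin (log2 fold change 1.09 ± 0.16 SE, limma adjusted p = 0.00200). Ddit3, which encodes the endoplasmic reticulum stress factor CHOP, rose from 22.6 ± 2.3 to 40.8 ± 1.4 TPM (0.83 ± 0.07, adjusted p = 0.000153). Myc was 31.0 ± 1.7 TPM in vehicle and 32.3 ± 1.1 TPM in ampicillin libraries (adjusted p = 0.773) and rose to 52.5 ± 9.4 TPM with tributyrin (0.67 ± 0.11, adjusted p = 0.00443). Of 10 tested genes for turnover and activity control of these proteins, 1 rose with ampicillin. With tributyrin 1 rose and 1 fell, as with both agents against vehicle. Mapk8, the JNK1 kinase gene, rose with ampicillin from 6.22 ± 0.55 to 8.18 ± 0.15 TPM (0.35 ± 0.08, adjusted p = 0.0134). It fell with tributyrin to 6.45 ± 0.57 TPM (-0.30 ± 0.08, adjusted p = 0.0237). The adjusted p of that fall ran from 0.0206 to 0.0710 with single libraries left out. Dynll1, the dynein light chain that binds BIM, was higher with both agents than in vehicle (49.9 ± 8.0 to 83.2 ± 7.3 TPM, adjusted p = 0.00276).

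Immediate early genes, which respond to stimulation and also to the handling of tissue during cell isolation, formed a further list. Of 10 tested, 6 rose with ampicillin, 5 with tributyrin and 9 with both agents against vehicle, and none fell. The median log2 fold change of this list was 0.49, 0.32 and 0.82, beside 0.02, 0.05 and 0.08 over all genes. Dusp1, a MAP kinase phosphatase, was 101.4 ± 11.3, 191.4 ± 9.6 and 229.6 ± 10.6 TPM in vehicle, ampicillin and tributyrin libraries (ampicillin against vehicle, log2 fold change 0.91 ± 0.08 SE, limma adjusted p = 0.000172). Fosb was 140.8 ± 20.4, 243.3 ± 8.4 and 319.6 ± 20.6 TPM (0.79 ± 0.10, adjusted p = 0.000928). The part of these genes, and of the Mir6236 share and the epithelial, small intestinal, endothelial, blood and lymphocyte markers given above, in the differences of the BCL2 members was not tested.

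**Figure D5:**
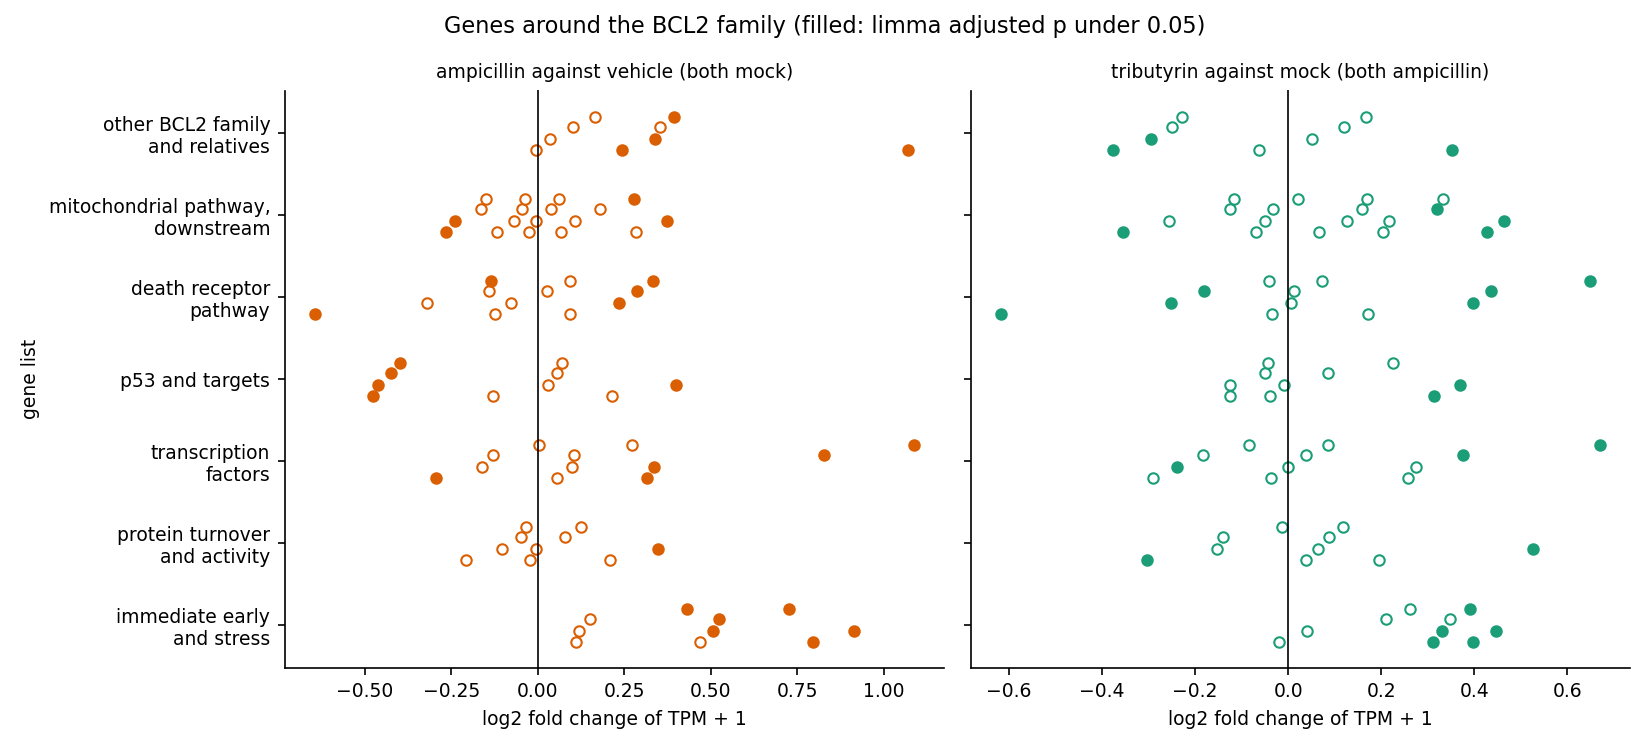
Log2 fold change of TPM + 1 (horizontal axes) of every tested gene of 7 lists around the BCL2 family, for ampicillin against vehicle (left) and tributyrin against mock gavage (right); filled points passed the limma adjusted p of 0.05. The immediate early and stress list has no called gene below 0 in either panel. The p53 list, which leaves out Pmaip1 and Bbc3, has 4 called genes below 0 and 1 above 0 with ampicillin.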

How the data were processed

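RNA was measured in 9 libraries of isolated caecal epithelial cells, grouped by the sample titles. Per the labels' protocols, cells were released with DTT, EDTA and Dispase and libraries made with NEBNext Ultra II kits. The authors deposited a table of TPM values for each gene in each library. The submitters' processing notes list Salmon 0.8.2, DESeq2 1.20.0 and build mm10, with no role or order. The TPM values sum to 999833 to 999866 per library and keep no depth, so no counting interval or count test was possible, and precision is the spread between libraries. Gene IDs were matched to RefSeq (GRCm38.p6, the mm10 build), 24045 of 24091.

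Genes with a mean TPM of at least 1 (12155) were tested on log2(TPM + 1) with limma 3.58.1 (R 4.3.3), a variance trend, 1 mean per group and 6 residual degrees of freedom, two-sided. An exact permutation test of 3 against 3 cannot go below 0.1. The members and lists were chosen with earlier results of these data known. Named outside the members are up to 4 called genes per list and comparison, largest change first, with non-overlapping libraries, or a shorter choice of these, plus Bcl2, Bcl2l2, Bok, Bad, Apaf1, Trp53 and Ddit3; a gene of this choice is not reported here. Alternatives were pseudocounts of 0.1 and 0.5, other filters, scalings, variance models and sample sets, a replicate block and leaving out each library. Some Bid, Bik and Bcl2l1 reads could belong to genes that overlap them and have no row in the table.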

Additional observations from a re-analysis of the deposited data

How the results depend on the processing

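With ampicillin, the number of members called was 1 and became 2 with a pseudocount of 0.1, quantile normalization, TPM rescaled without short RNA or only the 2 groups compared, 3 with array weights, and 1 to 2 with single libraries left out. With tributyrin against mock gavage it was 3 and became 1 without a filter on low values or with quantile normalization, and 1 to 4 with single libraries left out: 1 without Amp_Mock replicate 1, Amp_Mock replicate 2, Amp_Tributyrin replicate 2 or Amp_Tributyrin replicate 3. With both agents against vehicle it was 3 and became 1 with only the 2 groups compared, and 2 to 4 with single libraries left out. The cause was not tested. Uncalled fold changes that changed sign (log2) were, with quantile normalization, Bik -0.0278 and Bmf -0.0201 with both agents, and with array weights Bcl2l1 -0.0113 with ampicillin, Bcl2 0.00979 with tributyrin and Bik -0.0161 with both agents. With single libraries left out, the ranges with ampicillin were -0.0152 to 0.0922 for Bcl2l1, -0.00553 to 0.112 for Mcl1, -0.00199 to 0.103 for Bak1, -0.137 to 0.0147 for Bmf, -0.00213 to 0.0978 for Bok and -0.00219 to 0.0493 for Trp53; with tributyrin -0.125 to 0.0573 for Bcl2 and -0.202 to 0.00627 for Trp53; and with both agents -0.0676 to 0.339 for Bik and -0.172 to 0.0363 for Trp53. Rescaling TPM without short RNA moved the summed pro-survival TPM in tributyrin libraries from 156.0 to 160.9, the effectors from 241.9 to 254.8 in vehicle and from 258.4 to 270.1 in ampicillin, and the BH3-only sum in ampicillin from 48.9 to 51.1. Over all genes, tributyrin against mock gavage gave 1902 higher and 917 lower, 1466 and 1647 with quantile normalization, and 1530 and 1509 with median centring; with both agents 2325 and 1119 became 1683 and 1663, and 1560 and 1722. The 2819 genes called with tributyrin against mock gavage became 1756 without Amp_Mock replicate 1, 1681 without Amp_Mock replicate 2, 1587 without Amp_Tributyrin replicate 2 and 4271 with array weights, and the 3444 with both agents 2093 without Amp_Tributyrin replicate 2. Deviations from the group means correlated at r = -0.0498 to 0.108 between same-numbered libraries and -0.117 to 0.0748 between the others. Deviations within a group of 3 are tied to each other, so these values cannot decide whether the numbers pair the libraries, and the labels do not say. With the replicate block 1, 4 and 3 members were called in the 3 comparisons (2707, 3009 and 3569 genes). Depth is unknown, so no detection limit can be given for Bmf and Bcl2l11, the lowest members.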

Other observations

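Family genes that did not pass the filter were Bcl2l10, Hrk, Bcl2a1a, Bcl2a1b, Bcl2a1d and Bcl2l15. Bcl2l15 was at 4.29 TPM in Vehicle_Mock replicate 2 and at most 0.345 TPM in each other library. That library is the one that stood apart in small intestinal markers, at 568.5 TPM. Bcl2a1a, Bcl2a1b and Bcl2a1d, near-identical genes of blood cells whose reads cannot be divided with certainty, were at most 0.349, 1.16 and 0.429 TPM.

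Across the 9 libraries, Bak1 and Bax had a Pearson correlation of -0.78, Bak1 and Bbc3 of 0.70, and Bid and Pmaip1 of 0.86 (log2 TPM + 1). These pairs were chosen after their values were seen, the libraries share group and scaling, and the values are descriptions.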
